A study of Homo sapiens with 10 samples.

Results

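The genes described here are 10 genes of the Notch pathway, chosen by name: the receptors NOTCH1, NOTCH2 and NOTCH3, the ligands DLL1, DLL3 and JAG1, and the HES and HEY family genes HES1, HES5, HEY1 and HES6. They are 10 of the 30357 named genes in the deposited gene tables, and all 10 had an entry. Their RNA was measured by bulk RNA-seq in 10 libraries of neurons grown from RUES2-Avil:tdT, a reporter line of the human embryonic stem cell line RUES2 with tdTomato at AVIL, a gene of sensory neurons. Every library was labelled as sensory neurons at day 60 in vitro, and the labelled difference between them was the differentiation protocol. The 3 proprioceptor libraries followed a protocol aimed at neurons that sense muscle stretch, the 3 mechanoreceptor libraries one aimed at touch neurons, and the 4 nociceptor libraries one aimed at pain-sensing neurons. The protocol names state the intended neuron, all libraries came from the same line, and no source used here stated a sort for the reporter.

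Notch signalling passes between cells that touch. A ligand of the Delta or Jagged family on one cell pulls on a NOTCH receptor on its neighbour, the receptor is cut by ADAM proteases and then by gamma-secretase, and its freed intracellular domain joins the DNA-binding protein RBPJ and the coactivator MAML to switch on repressors such as HES1, HES5 and HEY1. In the neural crest and the dorsal root ganglion this signal is known to hold cells in a progenitor or glial state, while cells that become neurons express ligands and lower their own signalling.

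The labelled cell type was checked against its markers. The named genes received between 27891186 and 44541262 counts per library. Of 13 sensory neuron genes, 12 or 13 reached 1 TPM in each library (TPM is a share of the transcripts of a library, corrected for gene length, so levels of different genes can be set side by side), and all 12 pan-neuronal genes did so in each library. Other cells were present in amounts that varied within every protocol. The summed level of 12 Schwann cell and satellite glia genes was 195, 2838 and 192 TPM in proprioceptor libraries 1 to 3, 71.1, 99.3 and 2251 TPM under the mechanoreceptor protocol, and 4887, 3479, 6477 and 629 TPM in nociceptor libraries 1 to 4. The summed level of 12 fibroblast and mesenchyme genes followed the same libraries, at 19.3, 1305 and 40.4 TPM, at 19.6, 18.2 and 1113 TPM, and at 1209, 1214, 3595 and 155 TPM in the same order of protocols. The high sums came mostly from the collagen genes COL1A1 and COL1A2, at up to 1984 and 1510 TPM. The next highest of the list, POSTN, reached 97.7 TPM. SOX10, which defines the glial lineage, had no library at 0, but it was at 0.0136 TPM, a single count, in mechanoreceptor library 2, where FOXD3 and MAL of the glial list had no count. Proprioceptor library 2, mechanoreceptor library 3 and nociceptor libraries 1, 2 and 3 therefore had the most glial and mesenchymal RNA, and in bulk RNA fewer cells of a type and less RNA per cell cannot be told apart.

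The 3 receptors were low in all libraries, and NOTCH2 was the highest of them in each. NOTCH1 (chromosome 9, 136494433 to 136546048, GRCh38.p14) encodes the receptor best known from early neural development. It had 0.0135, 0.668 and 0 TPM in proprioceptor libraries 1 to 3, 0, 0 and 0.554 TPM in mechanoreceptor libraries 1 to 3, and 0.860, 1.15, 3.09 and 0.248 TPM in nociceptor libraries 1 to 4. The values at 0 were 0 counts, in proprioceptor library 3 and mechanoreceptor libraries 1 and 2, and the highest value stood on 497 counts, in nociceptor library 3. Proprioceptor library 2 and mechanoreceptor library 3 lay within the nociceptor range, so the 3 protocols overlapped.

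NOTCH2 (chromosome 1, 119911553 to 120069662) encodes a receptor that is broadly expressed outside neurons. It had 0.597, 4.45 and 0.949 TPM in the proprioceptor libraries, 1.67, 1.73 and 3.29 TPM in the mechanoreceptor libraries, and 4.94, 3.89, 5.84 and 4.13 TPM in the nociceptor libraries. In TPM, all 3 mechanoreceptor libraries were below all 4 nociceptor libraries. In counts they were not, with 747 in mechanoreceptor library 3 against 298 in nociceptor library 4. The protein-coding transcript NOTCH2-201 was also higher in the former, at 2.83 against 0.968 TPM. No other of the 10 genes separated those protocols in TPM, while 9.88% of the 16130 genes tested did. Neither did any of the 10 separate proprioceptor from nociceptor libraries, as 2.94% of the genes tested did, or proprioceptor from mechanoreceptor libraries, as 5.89% did. NOTCH2 has near-identical partial copies on the same chromosome, the NOTCH2NL genes, and the deposited estimates divided reads between them. NOTCH2NLA alone was listed at 18.6, 22.6 and 11.4 TPM in the proprioceptor libraries, 47.2, 32.7 and 25.8 TPM in the mechanoreceptor libraries, and 29.1, 21.3, 28.2 and 17.4 TPM in the nociceptor libraries. It exceeded NOTCH2 in each library, so the level of NOTCH2 is uncertain.

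NOTCH3 (chromosome 19, 15159038 to 15200995) encodes the receptor of pericytes and smooth muscle, which is also found in glial and progenitor cells. It had 0.115, 2.44 and 0.792 TPM in the proprioceptor libraries, 0.221, 0.288 and 2.03 TPM in the mechanoreceptor libraries, and 1.23, 1.18, 3.74 and 0.272 TPM in the nociceptor libraries. Proprioceptor library 2 and mechanoreceptor library 3 were again the highest of their protocols and nociceptor library 4 the lowest of its own. NOTCH2 made up between 46.1% and 88.8% of the TPM of the 3 receptors, and the share of NOTCH1 ran from 0% in 3 libraries to 24.4% in nociceptor library 3. NOTCH4, a receptor first known from endothelium, was not among the 10 genes but was at 2.51 to 7.08 TPM, in TPM above NOTCH1 and NOTCH3 in each library. This order did not hold in counts. NOTCH4 had at most 236 counts in any library, against 497 for NOTCH1 and 498 for NOTCH3 in nociceptor library 3. Of 8 endothelial genes, 3 passed the filter on low counts. EGFL7 was at 3.57 to 60.8 TPM and CLDN5 at 0.0965 to 17.0 TPM, while CDH5, which defines endothelium, had at most 3 counts in any library.

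**Figure D1:**
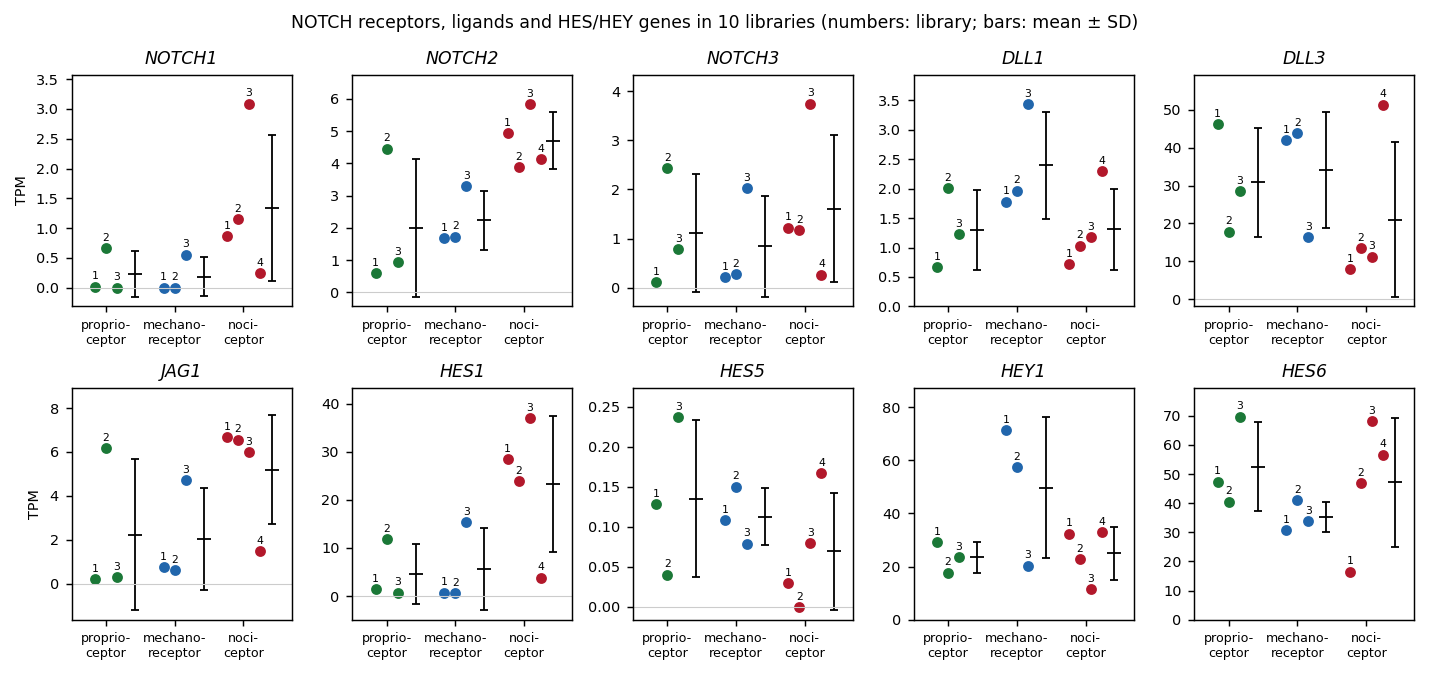
TPM of each of the 10 genes in every library, with proprioceptor libraries in green, mechanoreceptor libraries in blue and nociceptor libraries in red; numbers give the library and bars the mean ± SD of the protocol (n = 3, 3 and 4). NOTCH1, NOTCH3, JAG1 and HES1 are highest in proprioceptor library 2, mechanoreceptor library 3 and nociceptor libraries 1 to 3, and the protocols overlap for each of the 10 genes except NOTCH2 between mechanoreceptor and nociceptor libraries.

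Among the ligands, DLL3 was the most abundant in every library. DLL3 (chromosome 19, 39498947 to 39508469) encodes a divergent ligand that is known from mouse work to act inside the cell against Notch signalling. It had 46.2, 17.8 and 28.4 TPM in the proprioceptor libraries, 42.0, 43.8 and 16.4 TPM in the mechanoreceptor libraries, and 7.93, 13.4, 11.2 and 51.4 TPM in the nociceptor libraries. Nociceptor library 4 held the highest DLL3 TPM of all 10 libraries, while the other 3 nociceptor libraries held the lowest levels. In counts proprioceptor library 1 was above it, at 2356 against 1985, with near-equal totals of 27891186 and 27891888 counts. Of the DLL3 counts that were assigned to annotated transcripts, 70.0% fell on the protein-coding transcript DLL3-202 and 26.3% on the protein-coding transcript DLL3-201.

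JAG1 (chromosome 20, 10637684 to 10673999) encodes a Jagged ligand that is expressed by glial, mesenchymal and vascular cells among others. It had 0.204, 6.19 and 0.290 TPM in the proprioceptor libraries, 0.739, 0.617 and 4.71 TPM in the mechanoreceptor libraries, and 6.68, 6.56, 5.999 and 1.48 TPM in the nociceptor libraries. The low and high libraries of JAG1 were those of NOTCH1 and NOTCH3, and the reverse of those of DLL3. The ratio of DLL3 to JAG1 was 227, 2.88 and 98.0 for proprioceptor libraries, 56.8, 71.0 and 3.49 for mechanoreceptor libraries, and 1.19, 2.05, 1.87 and 34.8 for nociceptor libraries. DLL3 thus exceeded JAG1 in all 10 libraries, and by the least in nociceptor library 1.

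DLL1 (chromosome 6, 170282206 to 170291078) encodes a Delta ligand of newborn neurons. It had 0.665, 2.01 and 1.22 TPM in the proprioceptor libraries, 1.78, 1.97 and 3.44 TPM in the mechanoreceptor libraries, and 0.714, 1.03, 1.18 and 2.30 TPM in the nociceptor libraries. DLL1 varied the least of the ligands, with an SD of log2 CPM of 0.58 over the 10 libraries (CPM is the count scaled to library size), against 1.07 for DLL3 and 1.89 for JAG1. Of the 16130 genes tested, 51.4% had a larger SD than DLL1 and 4.95% a larger SD than JAG1.

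The HES and HEY genes stood at very different levels, with HES5 at a few counts and HEY1 at up to 71.5 TPM. HES1 (chromosome 3, 194136148 to 194138732) encodes a repressor of proneural genes that is a direct Notch target. It had 1.36, 11.8 and 0.722 TPM in the proprioceptor libraries, 0.700, 0.680 and 15.4 TPM in the mechanoreceptor libraries, and 28.5, 23.9, 36.9 and 3.84 TPM in the nociceptor libraries. Its highest library held 54.3 times the TPM of its lowest, and 2.52% of the genes tested had a larger SD of log2 CPM than HES1 (2.32). Nociceptor library 4 lay below proprioceptor library 2 and mechanoreceptor library 3, so the protocols overlapped. The protein-coding transcript HES1-201 took 98.1% of the HES1 counts.

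HES5 (chromosome 1, 2528745 to 2530263) encodes a Notch target of neural progenitors. It had 4, 1 and 7 counts in the proprioceptor libraries, 3, 5 and 2 counts in the mechanoreceptor libraries, and 1, 0, 2 and 4 counts in the nociceptor libraries, which is at most 0.237 TPM. These counts were at or near the 3 counts that a count of 0 allows. HES5 did not pass the filter on low counts, so 9 of the 10 genes entered the tests and no fold is given for HES5.

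HES6 (chromosome 2, 238238267 to 238240038) encodes a family member that promotes neuronal differentiation and is known to oppose HES1. It had 47.4, 40.6 and 69.7 TPM in the proprioceptor libraries, 30.8, 41.0 and 33.8 TPM in the mechanoreceptor libraries, and 16.5, 46.9, 68.3 and 56.7 TPM in the nociceptor libraries. HES6 was above HES1 in 9 of 10 libraries. The ratio of HES6 to HES1 was 35.0, 3.43 and 96.6 for proprioceptor libraries, 44.0, 60.3 and 2.19 for mechanoreceptor libraries, and 0.581, 1.97, 1.85 and 14.8 for nociceptor libraries.

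Promoter sequences were available from RefSeq on GRCh38.p14 for 7 of the 10 genes, as windows of 250 bases before to 50 bases after the start of the gene. The windows of HES1, HES5 and HES6 are shown because these genes of the same family behaved differently: HES1 varied widely, HES5 was nearly absent and HES6 was high throughout. RBPJ, through which Notch acts, is known to bind the core letters TGGGAA and more weakly TGTGAA. Capitals mark each match of TGGGAA or TGTGAA on either strand, and a match on the reverse strand reads TTCCCA or TTCACA. The windows are chr3:194135898-194136197 on the plus strand for HES1, chr1:2530214-2530513 on the minus strand for HES5 and chr2:238239989-238240288 on the minus strand for HES6, each written 5′ to 3′ along the gene.
HES1: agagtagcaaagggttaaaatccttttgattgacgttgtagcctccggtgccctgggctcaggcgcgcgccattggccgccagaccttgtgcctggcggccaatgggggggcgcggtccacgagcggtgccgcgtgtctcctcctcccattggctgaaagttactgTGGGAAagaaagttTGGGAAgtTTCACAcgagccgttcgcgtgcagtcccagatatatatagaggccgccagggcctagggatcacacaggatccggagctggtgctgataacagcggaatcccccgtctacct
HES5: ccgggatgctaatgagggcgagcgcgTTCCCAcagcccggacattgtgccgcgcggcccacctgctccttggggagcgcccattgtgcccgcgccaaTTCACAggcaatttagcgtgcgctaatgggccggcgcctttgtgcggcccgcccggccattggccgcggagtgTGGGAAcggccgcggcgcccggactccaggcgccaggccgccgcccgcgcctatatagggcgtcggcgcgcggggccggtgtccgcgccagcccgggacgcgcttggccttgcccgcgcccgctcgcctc
HES6: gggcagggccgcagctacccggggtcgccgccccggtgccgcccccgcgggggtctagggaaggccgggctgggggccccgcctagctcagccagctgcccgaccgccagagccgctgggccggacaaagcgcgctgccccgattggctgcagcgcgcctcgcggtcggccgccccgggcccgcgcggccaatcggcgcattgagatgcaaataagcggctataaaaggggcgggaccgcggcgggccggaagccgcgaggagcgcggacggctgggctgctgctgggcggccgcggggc

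The HES1 window held 2 matches of TGGGAA and 1 of TGTGAA, whose first bases were at -84, -70 and -62 from the start of the gene, and no match overlapped another. The HES5 window also held 2 matches of TGGGAA and 1 of TGTGAA, at -224, -80 and -153. HES6 had no match, and neither had the windows of NOTCH1, NOTCH2, NOTCH3 and JAG1. Among 35116 RefSeq promoter windows of the same length, 24.0% held TGGGAA, 13.1% held TGTGAA, and 1.27% held at least 3 matches of either. A match describes these letters and says nothing of binding in these cells: HES1 and HES5 had the same number of matches and differed widely in level.

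HEY1 (chromosome 8, 79764010 to 79767767) encodes a repressor related to HES1 that is a target of Notch and also of BMP signalling. It had 29.2, 17.7 and 23.6 TPM in the proprioceptor libraries, 71.5, 57.4 and 20.4 TPM in the mechanoreceptor libraries, and 32.5, 22.9, 11.5 and 33.0 TPM in the nociceptor libraries. The highest HEY1 levels were those of mechanoreceptor libraries 1 and 2, where HES1 was lowest, and mechanoreceptor library 3 lay within the nociceptor range.

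For none of the genes did a difference between protocols pass edgeR's quasi-likelihood test. Beside nociceptor libraries, the receptors, JAG1 and HES1 had negative log2 fold changes in proprioceptor and in mechanoreceptor libraries, and DLL1, DLL3 and HEY1 had positive ones, all within the spread between libraries. In proprioceptor minus nociceptor libraries, 0 of the 9 genes tested was called at an adjusted p under 0.05, where 0.0% of all 16130 genes were called, and 0 of 9 had an unadjusted p under 0.05, where 998 genes or 6.19% did. DESeq2 called 31 genes in that comparison and limma on log2 TPM called 0, and none of those was among the 10 genes, although DESeq2 gave JAG1 no adjusted p. An F test over all 3 protocols also called 0 of the 9 genes and 0.0% of all genes, and 0 of the 9 had an unadjusted p under 0.05, where 5.73% of all genes did. Both comparisons with nociceptor libraries share the 4 nociceptor libraries.

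HES1 averaged 4.64 ± 6.24 TPM in proprioceptor libraries, 5.60 ± 8.51 TPM in mechanoreceptor libraries and 23.3 ± 14.05 TPM in nociceptor libraries (SD, n = 3, 3 and 4). Its log2 fold change was -2.44 ± 1.28 in proprioceptor minus nociceptor libraries (SE, edgeR adjusted p = 0.665), the smallest unadjusted p of the 9 genes there at 0.0832. In mechanoreceptor minus nociceptor libraries it was -2.20 ± 1.26 (edgeR adjusted p = 0.627). Each value moved with 1 library: the first was -3.996 without proprioceptor library 2 and the second -5.27 without mechanoreceptor library 3, again with no call. DESeq2 gave HES1 unadjusted p-values of 0.0146 and 0.0262 in these comparisons and adjusted p-values of 0.421 and 0.368.

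NOTCH1 averaged 0.227 ± 0.382 TPM in proprioceptor, 0.185 ± 0.320 TPM in mechanoreceptor and 1.34 ± 1.23 TPM in nociceptor libraries (SD). Its log2 fold change was -2.59 ± 1.98 in proprioceptor minus nociceptor libraries and -3.03 ± 2.03 in mechanoreceptor minus nociceptor libraries (edgeR adjusted p = 0.682 and 0.653). NOTCH2 had -1.37 ± 0.88 and -1.25 ± 0.88 in the same comparisons, NOTCH3 had -1.64 ± 1.44 and -1.82 ± 1.45, and JAG1 had -1.53 ± 1.12 and -1.56 ± 1.12. The spread behind these folds is the split of each protocol into libraries with high and low values described above. Without proprioceptor library 2 the first value was -3.21 for NOTCH2, -4.16 for NOTCH3 and -4.03 for JAG1, and without mechanoreceptor library 3 the second was -2.54, -5.17 and -3.33. Without nociceptor library 3, NOTCH3 had -0.79 and -0.96. NOTCH1 was left at 0 or near 0 counts in the proprioceptor or mechanoreceptor libraries by the same omissions, so no fold is given for it there. With the counts of its copies added, NOTCH2 had -0.87 ± 0.42 and -0.06 ± 0.41.

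HEY1 averaged 23.5 ± 5.74 TPM in proprioceptor, 49.8 ± 26.4 TPM in mechanoreceptor and 25.0 ± 10.1 TPM in nociceptor libraries (SD). Its log2 fold change was 0.90 ± 0.51 in mechanoreceptor minus nociceptor libraries (edgeR adjusted p = 0.625), the smallest unadjusted p of the 9 genes there at 0.108. In that comparison 0 of the 9 genes and 0.0% of all genes were called, and 1320 genes or 8.18% had an unadjusted p under 0.05, none of them among the 9. DLL3 had 0.98 ± 0.71 in proprioceptor minus nociceptor libraries and 0.56 ± 0.71 in mechanoreceptor minus nociceptor libraries, and DLL1 had 0.04 ± 0.49 and 0.59 ± 0.48. Without proprioceptor library 1, the DLL3 value of the first of these comparisons was -0.01.

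Between proprioceptor and mechanoreceptor libraries the largest fold was that of HES6, at 0.90 ± 0.51 log2 units in proprioceptor minus mechanoreceptor libraries, with an adjusted p of 1.00 by edgeR's quasi-likelihood test. HES6 averaged 52.6 ± 15.2 TPM in proprioceptor libraries, 35.2 ± 5.25 TPM in mechanoreceptor libraries and 47.1 ± 22.2 TPM in nociceptor libraries (SD). HEY1 was -0.61 ± 0.55, and the other 7 genes tested lay between -0.55 and 0.44. Leaving out 1 library turned the sign of 6 of these 7, all but DLL1. HES1 was -1.76 without proprioceptor library 2 and 2.81 without mechanoreceptor library 3, JAG1 was -2.42 and 1.79, NOTCH2 -1.92 and 1.15, and NOTCH3 -2.32 and 3.53. In this comparison 0 of 9 genes and 0.0% of all genes were called, and 1.49% of all genes had an unadjusted p under 0.05. A difference had to be large to be called in counts simulated for 16130 genes with the mean levels and spread of all 10 libraries. There the test of mechanoreceptor minus nociceptor libraries found 10.5% of 200 genes changed 4-fold and 84.5% of 200 genes changed 16-fold. The proprioceptor minus mechanoreceptor comparison was not simulated.

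**Figure D2:**
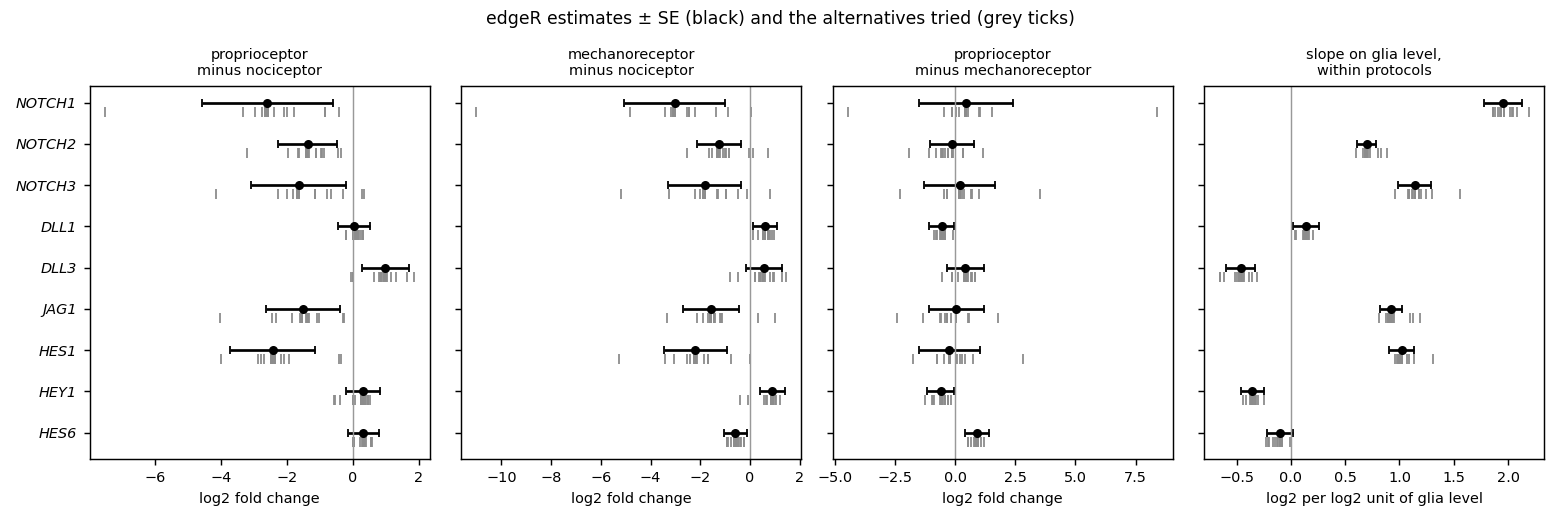
Estimates of edgeR's quasi-likelihood fit for the 9 genes tested, as black points with the SE, and the values under each alternative as grey ticks; the first 3 panels give log2 fold changes between protocols and the last the slope of log2 CPM on the glial list level within protocols. The fold changes of the receptors, JAG1 and HES1 against nociceptor libraries are negative with wide errors, and their slopes on the glial level are far from 0 with small ones.

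Within each protocol, and on the CPM scale, the receptors, JAG1 and HES1 were high in the libraries with much glial RNA and low in the others, and DLL3 ran the other way. This relation was examined after the values had been seen. The glial level of a library was the mean log2 CPM of the 12 Schwann and satellite glia genes, none of which is among the 10 genes. It was 2.60, 5.87 and 2.09 for proprioceptor libraries 1 to 3, 1.36, 0.81 and 5.32 for mechanoreceptor libraries 1 to 3, and 6.05, 6.16, 6.65 and 4.25 for nociceptor libraries 1 to 4. A slope on this level was added to the edgeR model beside the mean of each protocol, so that it compares libraries of the same protocol. The slope was called for 1536 of 16130 genes (9.52%), of which 1378 (8.54%) were positive and 158 (0.98%) negative.

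Of the 9 genes tested, 5 had a positive slope that was called and 1 a negative one, and 7 of 9 had an unadjusted p under 0.05, where 20.2% of all genes did. NOTCH1 changed by 1.96 ± 0.17 log2 units per log2 unit of glial level (SE, edgeR adjusted p = 1.54e-05), NOTCH3 by 1.14 ± 0.15 (adjusted p = 0.000314) and NOTCH2 by 0.70 ± 0.09 (adjusted p = 0.000151). HES1 changed by 1.02 ± 0.12 (edgeR adjusted p = 8.13e-05) and JAG1 by 0.92 ± 0.10 (edgeR adjusted p = 7.98e-05). These 5 slopes were called under each of the 15 alternatives tried, including the omission of any single library and of mechanoreceptor libraries 1 and 2 together, which lay farthest from the median glial level. No slope was fitted for NOTCH2 summed with its copies. Of the 4 copies tested, 0 had a called slope, and their median slope was 0.02. For comparison, SOX10 had a slope of 1.43 ± 0.13, as a part of the glial level itself.

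DLL3 had a slope of -0.46 ± 0.13 (edgeR adjusted p = 0.0463), and this call held under 5 of 15 alternatives, with values between -0.66 and -0.31. HEY1 had -0.36 ± 0.11 and missed the threshold (edgeR adjusted p = 0.0552). DLL1, at 0.14 ± 0.12, and HES6, at -0.10 ± 0.12, were not called either (edgeR adjusted p = 0.581 and 0.715). The pan-neuronal genes, which mark neuronal RNA in general, had a median slope of -0.21 over 12 genes, and the 13 sensory neuron genes one of -0.22, against -0.01 over all genes tested.

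**Figure D3:**
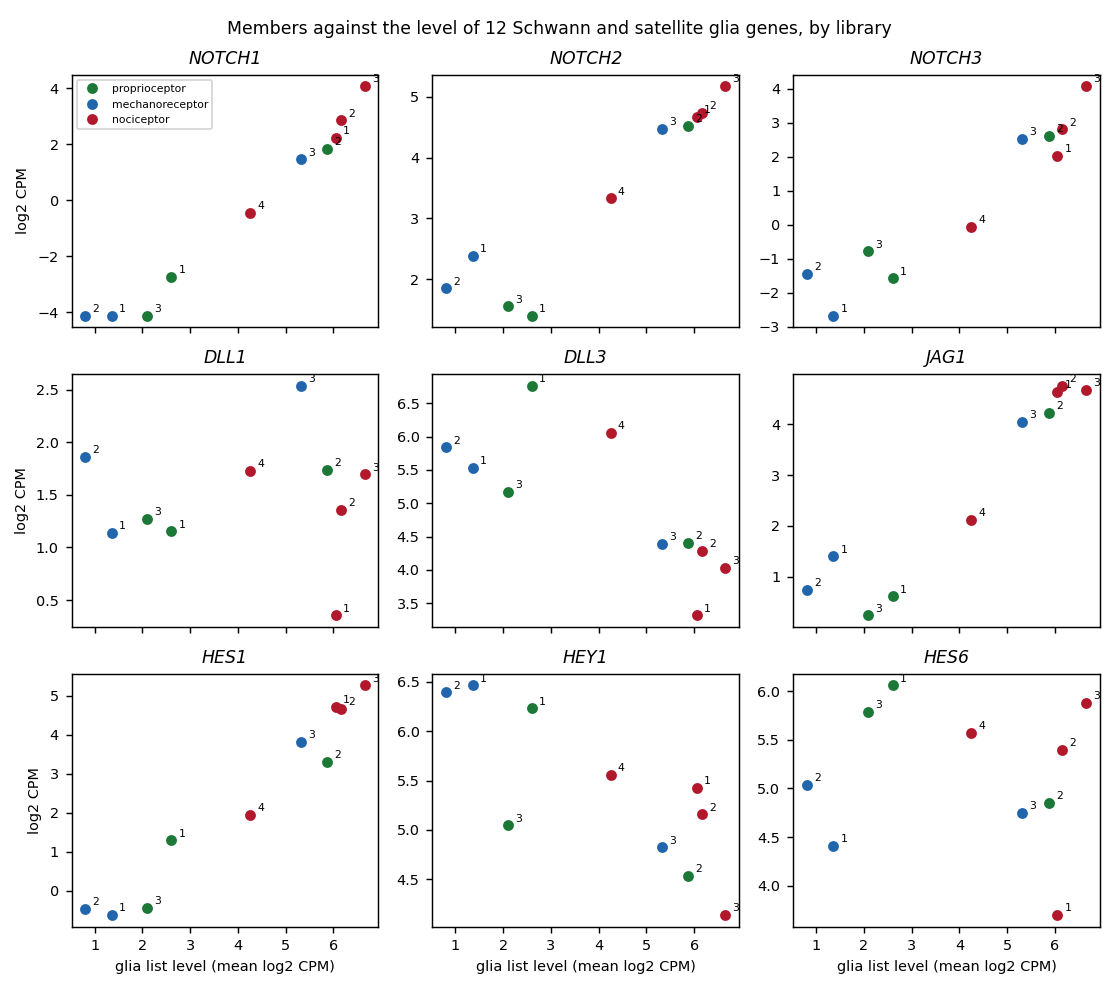
Log2 CPM of the 9 genes tested (vertical axes) against the glial level of the library, the mean log2 CPM of 12 Schwann and satellite glia genes (horizontal axes), with 1 point per library numbered by replicate. NOTCH1, NOTCH2, NOTCH3, JAG1 and HES1 run upward from mechanoreceptor libraries 1 and 2 and proprioceptor libraries 1 and 3, through nociceptor library 4, to the other libraries, and DLL3 runs downward.

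The glial level did not move alone. The mesenchyme list level was 1.08, 3.80 and 1.15 (mean log2 CPM) for proprioceptor libraries, 0.77, 0.98 and 3.73 for mechanoreceptor libraries, and 4.26, 4.42, 4.23 and 2.04 for nociceptor libraries. A positive slope was called for 5 of 11 mesenchymal, 3 of 9 pericyte and smooth muscle and 4 of 5 neural progenitor genes tested. It was called for 7 of 10 proliferation and 0 of 3 endothelial genes, and for 8.54% of all genes tested. It was also called for 10 of 12 glial genes, but these make up the glial level itself, so their count is no separate result. Of the 7 neural progenitor genes listed, SOX1 and PAX6 did not pass the filter on low counts, with at most 3 and 18 counts in any library. COL1A1, a collagen of fibroblasts, had 1.84 ± 0.18, ACTA2, the smooth muscle actin, 1.15 ± 0.12, SOX2, a progenitor and glial factor, 1.33 ± 0.17 and VIM, the filament of glia, mesenchyme and progenitors, 0.79 ± 0.12. With the mesenchyme level in place of the glial level, 1768 genes were called, and the same 5 genes of the 10 were among them. Which cell types carried the receptors, JAG1 and HES1 was not tested, and the part of such cells in the differences between protocols was not tested beyond the fits with these levels as covariates.

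With the glial level held constant, the negative folds against nociceptor libraries shrank or turned. HES1 was -0.44 ± 0.53 in proprioceptor minus nociceptor libraries and 0.02 ± 0.57 in mechanoreceptor minus nociceptor libraries, and NOTCH1 was -0.41 ± 0.69 and 0.04 ± 1.39. JAG1 was -0.31 ± 0.44 and 1.02 ± 0.54, NOTCH2 was -0.37 ± 0.37 and 0.73 ± 0.44, and NOTCH3 was 0.32 ± 0.68 and 0.80 ± 0.76. The positive folds of DLL3 and HEY1 did not stay either. DLL3 was 0.0099 ± 0.54 and -0.81 ± 0.59, and HEY1 was -0.55 ± 0.43 and -0.40 ± 0.50. Those of DLL1 stayed positive, at 0.31 ± 0.52 and 0.965 ± 0.563. None of these was called by edgeR, with adjusted p-values of 0.999 or above. In proprioceptor minus mechanoreceptor libraries of the same fit, JAG1 was -1.33 ± 0.46 and NOTCH2 -1.11 ± 0.38. Their unadjusted p-values by edgeR were 0.0122 and 0.0120, and neither was called (adjusted p = 0.99 for both). The other genes tested had unadjusted p-values of 0.0742 or above there.

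The makeup of each gene class moved with the same libraries. JAG1 held 0.432%, 23.8% and 0.969% of the TPM of the 3 ligands in the proprioceptor libraries, 1.66%, 1.33% and 19.1% under the mechanoreceptor protocol, and 43.6%, 31.2%, 32.6% and 2.68% in the nociceptor libraries. HES1 held 1.74%, 16.9% and 0.766% of the TPM of the 4 HES and HEY genes in the proprioceptor libraries, 0.679%, 0.685% and 22.1% under the mechanoreceptor protocol, and 36.7%, 25.5%, 31.6% and 4.09% in the nociceptor libraries. Both shares were highest in nociceptor library 1, and both were below 5% in the 5 libraries of lowest glial level.

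**Figure D4:**
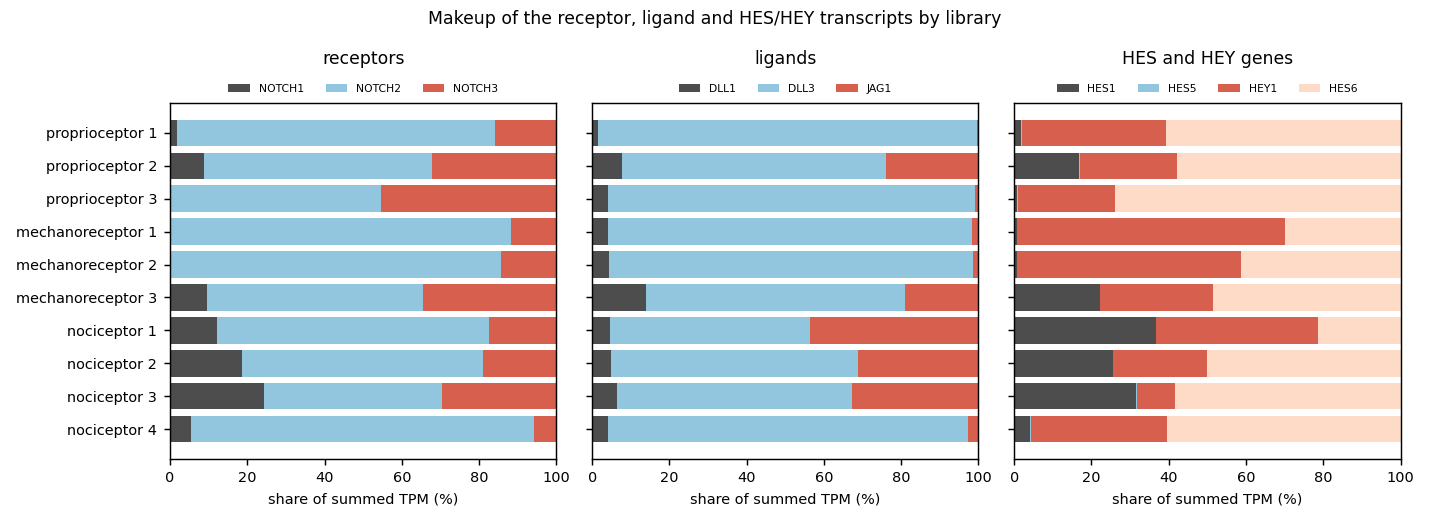
Share of the summed TPM of the 3 receptors, the 3 ligands and the 4 HES and HEY genes held by each gene, in percent, with 1 bar per library. DLL3 fills over 90% of the ligand bar in proprioceptor libraries 1 and 3, mechanoreceptor libraries 1 and 2 and nociceptor library 4, and JAG1 takes between 19.1% and 43.6% in the other 5 libraries.

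Genes whose pattern was most like that of each gene were found among 12719 tested genes of mean log2 CPM of at least 1, by the root mean square difference of log2 CPM after centring each gene over the 10 libraries. JAG1 was closest to GPSM2 at 0.21 log2 units and GLDC at 0.26, and HES1 to APOD at 0.37 and LOXL4 at 0.38. NOTCH1 was closest to ARTN at 0.45 and COL5A2 at 0.49, NOTCH2 to PDIA5 at 0.32 and MSRB3 at 0.33, and NOTCH3 to SLC12A4 at 0.32 and FBLN5 at 0.33. COL5A2 and FBLN5 encode matrix proteins, and APOD a lipid-binding protein. DLL3 was closest to FBXO2 at 0.28 and BIK at 0.31, HEY1 to PIP4P2 at 0.21 and MTHFD2 at 0.27, HES6 to RTL8A at 0.24 and MPST at 0.25, and DLL1 to LRRN2 at 0.17 and TMEM198 at 0.20. Among the 10 genes themselves the closest pair was NOTCH2 and JAG1, at 0.46. These distances share the libraries and their depth and describe likeness of pattern only.

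The rest of the pathway was read from lists of 57 other genes, of which 51 passed the filter on low counts. By edgeR none of the 51 was called in any comparison of protocols, where 0.0% of all genes were called. In proprioceptor minus nociceptor libraries 19 of the 51 had a positive log2 fold change and the median was -0.16, against 0.03 over all genes tested. In mechanoreceptor minus nociceptor libraries 20 of 51 were positive and the median was -0.14, against 0.00. On the glial level 10 of the 51 had a positive slope that was called and 0 a negative one, beside 8.54% and 0.98% of all genes.

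Ligands and receptors outside the 10 genes had no called slope (0 of 6). DNER, a neuronal Notch-binding protein of the Delta type, was the most abundant, at 128, 357 and 261 TPM in proprioceptor libraries, 310, 324 and 449 TPM in mechanoreceptor libraries and 263, 141, 143 and 307 TPM in nociceptor libraries. All 3 mechanoreceptor libraries lay above all 4 nociceptor libraries, by little at 310 against 307 TPM, and the proprioceptor libraries overlapped both. Of all genes tested, 9.88% separated mechanoreceptor from nociceptor libraries in TPM. DLK1, a non-canonical ligand, had 5.71, 30.3 and 102 TPM in proprioceptor libraries, 1.71, 4.37 and 27.2 TPM in mechanoreceptor libraries and 0.798, 26.3, 13.5 and 0.833 TPM in nociceptor libraries, and its log2 fold change in proprioceptor minus nociceptor libraries was 2.15 ± 1.27 (edgeR adjusted p = 0.666). DLL4, a Delta ligand, had 1.25 ± 0.61 in mechanoreceptor minus nociceptor libraries (edgeR adjusted p = 0.598), and stayed under 1.3 TPM in each library.

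Of 16 genes that modify or cut ligands and receptors, 6 had a positive slope on the glial level that was called. MFNG, a Fringe enzyme that adds sugars to NOTCH, had the steepest, at 2.79 ± 0.26 (edgeR adjusted p = 2.11e-05). It had 0, 29 and 0 counts in proprioceptor libraries, 0, 0 and 29 counts in mechanoreceptor libraries and 99, 53, 156 and 0 counts in nociceptor libraries, so its counts were in the libraries where NOTCH1 had over 90. The other 5 were the Fringe gene LFNG at 0.73, the protease genes FURIN at 0.60 and ADAM10 at 0.47, NCSTN, a part of gamma-secretase, at 0.38 and POFUT1, which adds fucose to NOTCH, at 0.38. PSENEN, another part of gamma-secretase and the most abundant gene of the list, had -0.15 ± 0.12.

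In the nuclear complex 1 of 9 genes was called on the glial level, the acetyltransferase gene KAT2B at 0.65 ± 0.12 (edgeR adjusted p = 0.00404). RBPJ, the DNA-binding core, was at 52.7, 75.8 and 90.6 TPM in proprioceptor libraries, 107, 62.3 and 85.2 TPM in mechanoreceptor libraries and 116, 82.9, 72.4 and 90.1 TPM in nociceptor libraries, and its slope was -0.04 ± 0.07. RBPJ was thus present in each library at a level above every NOTCH receptor. MAML1, a coactivator, was at 0.224 to 3.04 TPM and had 0.26 ± 0.12 (edgeR adjusted p = 0.272).

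Of the 8 inhibitors and modulators none was called, with DTX1, a ubiquitin ligase gene, at 0.54 ± 0.16 (edgeR adjusted p = 0.0591), NRARP, a feedback inhibitor, at -0.09 ± 0.15 and FBXW7, which marks the NOTCH intracellular domain for degradation, at -0.03 ± 0.10. Of the other HES and HEY genes 4 of 6 were tested and 1 was called, HEYL at 0.45 ± 0.10 (edgeR adjusted p = 0.00987). HES4 was the most abundant of them, at 24.9 to 76.0 TPM, with -0.16 ± 0.10, and HEY2 and HES7 stayed below 1.3 TPM with -0.24 ± 0.20 and 0.13 ± 0.16. HEY2 had a log2 fold change of 1.30 ± 0.74 in mechanoreceptor minus nociceptor libraries (edgeR adjusted p = 0.625), beside 0.90 for HEY1.

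Of the 5 TLE corepressors, which HES proteins recruit, TLE2 was called on the glial level at 1.28 ± 0.19 (edgeR adjusted p = 0.000719), and TLE1 and TLE3 were at 0.19 ± 0.09 and 0.34 ± 0.14 without a call. Among the proneural factors, which HES1 represses, NEUROD1 and NEUROD4 were below 0.4 TPM in each library and had 0.22 ± 0.27 and 0.25 ± 0.23.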

How the data were processed

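Poly(A)-primed cDNA (Clontech Ultra Low v4) of Trizol-extracted RNA was made into NexteraXT libraries and read as paired 75 nt reads, per the labels' protocols. The quantifier was kallisto 0.50.1 and the build GRCh38.p14, per the submitters' processing notes. The authors deposited estimated counts, rounded to whole numbers, and TPM, per gene and per transcript. How transcripts were summed to gene symbols is not given in the sources used here. The transcripts matched by ID summed to other totals than the gene entry. The difference was up to 493 counts in a library for NOTCH1, 172 for HEY1, 120 for DLL1, 40 for NOTCH2 and 5 for HES5. These transcripts held 6 of the 1189 counts of NOTCH1 and 7 of the 29 counts of HES5. Of the 1005 counts of DLL1, DLL1-201 held 400 and DLL1-202 held 16. Reads shared by near-identical copies were divided by estimation, and the kit does not mark strand. An entry with a blank gene name, holding 0.733% to 1.66% of the counts, entered neither library sizes nor tests.

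The members and gene lists were chosen with earlier results of these data known. Libraries were grouped by their titles, which call them biological replicates and do not say whether they are separate differentiations, so the p-values rest on a spread that may be technical. No library was a copy of another (a chi-square per degree of freedom of at least 123 between libraries of a protocol). Genes kept by filterByExpr (16130) were fitted with edgeR 4.0.16 (R 4.3.3; TMM scaling, glmQLFit, 1 mean per protocol, all 10 libraries) and tested two-sided, with Benjamini-Hochberg adjustment over all of them and a threshold of 0.05. The common biological coefficient of variation was 0.550. The slope model added the mean log2 CPM of 12 glial genes and was chosen after seeing the data. Alternatives were DESeq2 1.42.0, limma 3.58.1 on log2(TPM + 1) and log2(TPM + 0.1), DESeq2 size factors, no filter on low counts, only the 2 protocols compared, a replicate block, glial or mesenchymal level as a covariate, NOTCH2 summed with its copies, and each library left out in turn. The fits were tested on simulated data. Named genes of a list were the 2 of largest absolute fold change and the 1 of highest mean TPM, and genes called on the slope were named after their values were seen. Some genes of the lists are not reported here. Transcripts took names from a GENCODE annotation of GRCh38. Promoter windows and gene coordinates came from RefSeq on GRCh38.p14, and counts are of amplified cDNA, so the floor of 3 counts covers counting error only.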

Additional observations from a re-analysis of the deposited data

Results flagged for a closer look

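Each result below is a library of the nociceptor protocol that stood apart from the other 3 of its protocol. The test used looks at groups of 4 libraries, was applied to 42 genes and list levels, and flags about 1 in 20 by chance. DLL3 was at 51.4 TPM in nociceptor library 4, against 7.93 to 13.4 TPM in the other 3 nociceptor libraries. JAG1 was at 1.48 TPM in nociceptor library 4, against 5.999 to 6.68 TPM in the other 3. The mesenchyme list level (mean log2 CPM) was 2.04 in nociceptor library 4, against 4.23 to 4.42 in the other 3, and the proliferation list level was 2.01, against 4.16 to 4.41. The part of that library's lower mesenchymal and proliferation levels in its DLL3 and JAG1 values was not tested. TLE2 was at 9.13 TPM in nociceptor library 3, against 1.59 to 2.10 TPM in the other 3 nociceptor libraries.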

How the results depend on the processing

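None of the 9 genes tested was called between protocols under any alternative run, except that DESeq2 gave JAG1 no adjusted p. DESeq2 called 31 genes in proprioceptor minus nociceptor libraries, 130 in mechanoreceptor minus nociceptor libraries and 79 over all 3 protocols, and the glial level as a covariate gave 1, 4 and 2, where edgeR called 0. The cause was not tested.

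With the glial level as a covariate, these mechanoreceptor minus nociceptor values turned sign: NOTCH1 0.041, NOTCH2 0.73, NOTCH3 0.80, JAG1 1.02, HES1 0.020, DLL3 -0.81, HEY1 -0.40, MFNG 1.33, MAML1 0.023 and TLE1 0.14. So did proprioceptor minus nociceptor values of NOTCH3, 0.32, HEY1, -0.55, and LFNG, 0.091. With the mesenchyme level they were NOTCH2 0.11, JAG1 0.33, DLL3 -0.47, HEY1 -0.095 and MFNG 0.030 in mechanoreceptor minus nociceptor libraries, and NOTCH3 0.28, DLL3 -0.057, HEY1 -0.57 and HES6 -0.014 in proprioceptor minus nociceptor libraries.

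Leaving out each library in turn gave -0.015 to 1.86 for DLL3 in proprioceptor minus nociceptor libraries. In proprioceptor minus mechanoreceptor libraries, where the folds of the receptors, JAG1 and HES1 were within an SE of 0 and turned with 1 library or a covariate, it gave -1.76 to 2.81 for HES1, -2.42 to 1.79 for JAG1, -0.16 to 3.89 for LFNG and -0.25 to 0.86 for PSENEN. The slope on the glial level was called for 859 genes (without proprioceptor library 2) to 1722, with 1002 without mechanoreceptor library 3, and for 862 without mechanoreceptor libraries 1 and 2. Those fits had fewer libraries.

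A replicate block called 0 genes between protocols and 790 on the slope. Deviations from the protocol means had correlations of -0.63 to 0.49 between same-numbered libraries of different protocols, and of -0.60 to 0.79 between differently numbered ones. The highest was between proprioceptor library 2 and mechanoreceptor library 3, both high in glial RNA. Whether same-numbered libraries were handled together cannot be told from these values.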
